A study of Mus musculus with 12 samples.

Results

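Complex I of the respiratory chain was followed through its nuclear genes in the jejunum of mice that differed in genotype and in diet. Members were all genes with a platform symbol starting with Ndufa, Ndufb, Ndufc, Ndufs or Ndufv, Ndufab1 included, without the Ndufaf assembly factors. Each gene was read from 1 probe set that carried no other symbol, the one with the highest mean over the 12 arrays, where probe sets of the cross-hybridising _x_at type were passed over if the gene had another. This gave 34 genes of the 12393 measured in the same way. Ndufs6, Ndufa11 and Ndufb4 were present on shared probe sets alone, so these 3 are not among the 34.

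Complex I takes electrons from NADH, passes them along a flavin and a chain of iron-sulphur clusters to ubiquinone, and pumps protons across the inner mitochondrial membrane. A small set of core subunits does the chemistry in the redox arm, a second set of core subunits encoded by mitochondrial DNA forms the proton pumps of the membrane arm, and many accessory subunits build and stabilise both arms. Absorptive enterocytes of the jejunum hold many mitochondria, which supply the ATP for sodium-driven uptake of nutrients.

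The 4 groups were all formed of male C57BL/6 mice, 6 to 8 weeks old, that had been kept on a soya-free powdered diet for 14 days. Mice were wild-type or POR-null, that is, null for NADPH-cytochrome P450 reductase, the electron donor of the microsomal cytochromes P450. For the last 24 h they ate either the same control diet or that diet with 6.2 g of quercetin per kg (7 mg per mouse). Quercetin is a flavonol of plants. The groups were thus wild-type control, wild-type quercetin, POR-null control and POR-null quercetin, each with 3 pools, and each pool held RNA of scraped epithelium from 3 mice. The labels do not give the tissues in which the reductase is deleted, and the genotype labels were not checked on the targeted gene, which was not analysed here.

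Each pool was hybridised to 1 Affymetrix 430A array, and the deposited values are log2 intensities. Array medians lay between 5.94 and 6.01, and no array stood apart in its correlation with the others (0.989 to 0.995 over all pairs of arrays). All 8 measured enterocyte markers were bright, with mean log2 intensities of 11.9 to 13.9, and none of the 3 brown fat markers reached the median probe set. Smooth muscle markers were uneven: the 3 arrays highest in them, by mean centred level, were pool 3 of the wild-type control group (0.76), pool 1 of the POR-null control group (0.56) and pool 1 of the POR-null quercetin group (0.21), while the remaining arrays lay between -0.31 and 0.08. Precision is limited by the number of arrays, and p-values measure the spread between pools. In bulk RNA, fewer cells rich in mitochondria and less of these transcripts per cell cannot be told apart.

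Complex I genes were well measured in this tissue. Of the 34, 33 had a mean log2 intensity of 8 or more, from 8.05 for Ndufs5 to 11.15 for Ndufa1. Ndufb1, at 6.24, was the dim exception. The spread between pools was small, with a median within-group SD of 0.08 against 0.10 over all probe sets. Most of all probe sets are dimmer than these genes, and no SD was taken over bright genes alone.

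The wild-type control group stood highest throughout. Its mean was above the means of the other 3 groups for all 34 genes, and the lowest mean was that of the POR-null quercetin group for 24 genes, of the wild-type quercetin group for 8 and of the POR-null control group for 2. With every gene centred on its own mean, the mean level of the 34 genes was 0.071, 0.19 and 0.16 in wild-type control pools 1, 2 and 3. It was 0.0022, -0.0205 and -0.089 in the wild-type quercetin pools. It was -0.053, 0.018 and -0.015 in the POR-null control pools and -0.052, -0.11 and -0.0996 in the POR-null quercetin pools. So each of the 3 wild-type control pools lay above each of the other 9, and pool 1 was the nearest to them. In wild-type control pool 2 all 34 genes were above their own mean, and in POR-null quercetin pool 2 none was.

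**Figure D1:**
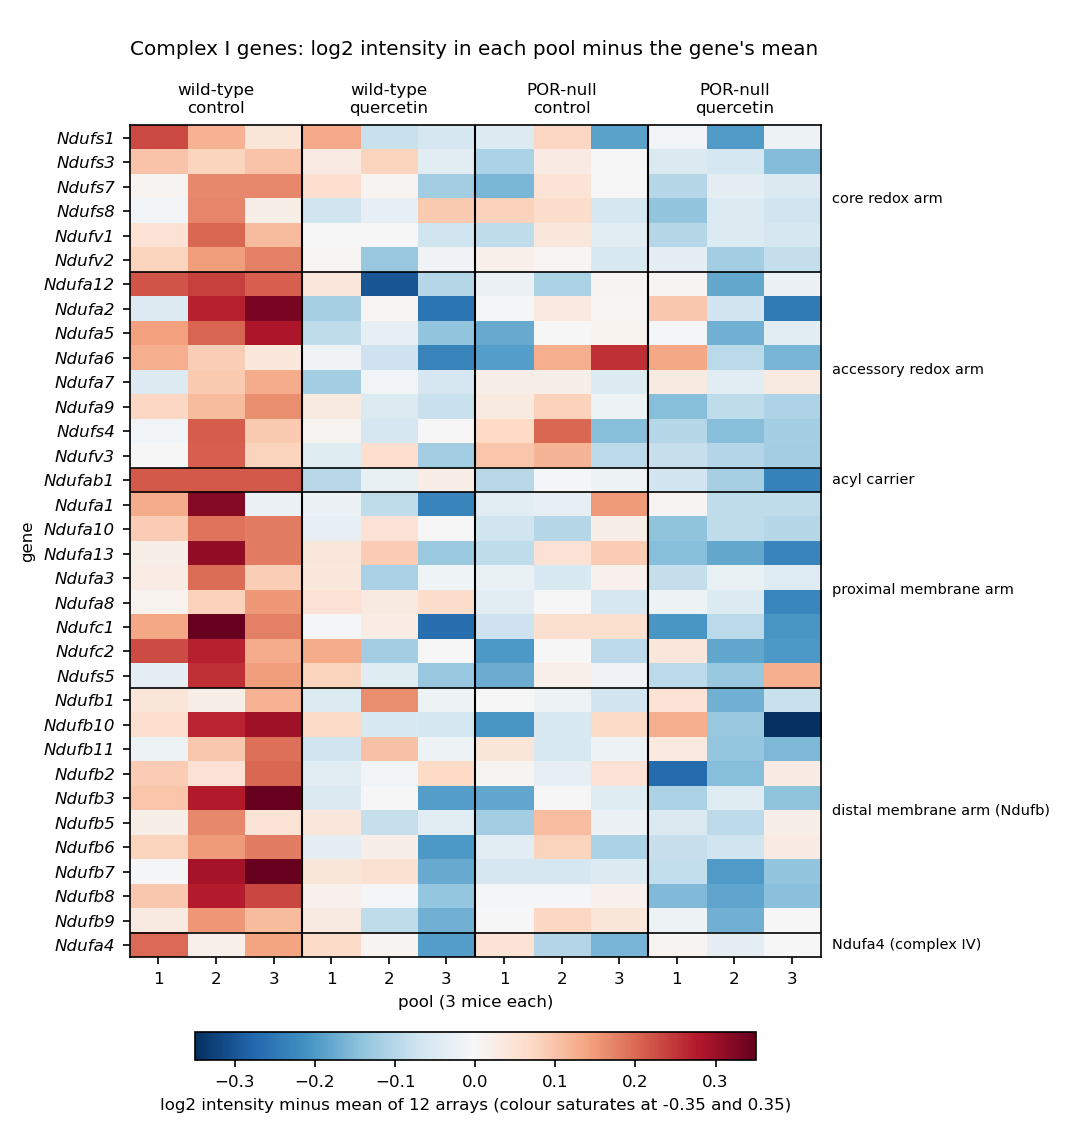
Log2 intensity of each complex I gene (rows, grouped by place in the complex) in each of the 12 pools (columns, in 4 groups of 3) minus the mean of that gene over all 12 arrays. Red is above and blue below the gene's mean, and the 3 wild-type control columns are mostly red, with 26, 34 and 33 of 34 genes above their mean.

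In 9 genes the 3 wild-type control pools lay above all 9 other pools: Ndufv1, Ndufv2, Ndufa5, Ndufa10, Ndufa12, Ndufab1, Ndufb3, Ndufb8 and Ndufc1. The same held for 0.72% of all probe sets. They come from the redox arm, the membrane arm and the acyl carrier alike. The differences were small, and no complex I gene passed the test in any of the comparisons that follow.

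Quercetin in wild-type mice went with lower readings of all 34 genes. The median log2 difference was -0.16 (10.3% lower), from -0.34 to -0.03, against 0.02 over all 12393 genes. Among the 2250 genes with a mean of 8 or more, the median was -0.04 and 62.0% were below 0, so bright genes at large also leaned below 0. With limma, 0 of 34 passed the adjusted threshold (smallest adjusted p = 0.301), against 0.0133% of all probe sets (3 of 22626). At an unadjusted p under 0.05, 13 of 34 were lower and 0 higher, against 4.16% of all probe sets lower. The pools did not overlap, with quercetin lower, in 12 of 34 genes, against 4.57% of all probe sets. The count of 13 dropped to 6 when control pool 2 was left out, to 8 when control pool 3 was left out and to 7 when quercetin pool 3 was left out. It rose to 17 when control pool 1 was left out and to 19 under median centring. The share of all probe sets was not taken in these settings.

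POR-null mice on the control diet also read lower than wild-type mice in all 34 genes. The median was -0.15 (9.98% lower), from -0.33 to -0.02, against 0.0067 over all genes and -0.01 over the bright genes. In limma's fit 0 of 34 passed (smallest adjusted p = 0.565), against 0% of all probe sets. At an unadjusted p under 0.05, 11 were lower and 0 higher, against 2.85% lower of all probe sets. The pools did not overlap, with POR-null lower, in 15 of 34 genes, against 4.29%. Without the 3 arrays highest in smooth muscle markers 33 of 34 stayed below 0, the median was -0.12 and 3 genes had an unadjusted p under 0.05. The count of 11 was 7 without wild-type control pool 2 and 15 without wild-type control pool 1. This comparison and the one before share the 3 wild-type control pools, so the likeness of their values is not independent evidence.

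The other pair of comparisons does not use those pools, and its values were smaller. Quercetin in POR-null mice gave a median of -0.07 (4.52% lower) with 31 of 34 genes below 0, against a median of 0 over all genes and -0.04 over the bright genes, of which 63.9% were below 0. By limma 0 of 34 passed (smallest adjusted p = 0.995), against 0% of all probe sets, and 2 were lower at an unadjusted p under 0.05, Ndufa13 and Ndufb8, against 1.98%. The pools did not overlap, with quercetin lower, in 5 genes (Ndufa9, Ndufa13, Ndufb7, Ndufb8 and Ndufc1), against 4.71% of all probe sets. Ndufa4, Ndufs5 and Ndufa7 were above 0 by 0.063, 0.023 and 0.01, each within its SE, and Ndufs5 and Ndufa7 turned sign when single pools were left out. The count of 31 below 0 was 23 under quantile normalization, 24 without control pool 2 of these mice and 26 without their quercetin pool 2, with 0 genes at an unadjusted p under 0.05 each time. It was 32, with 3 genes at that p, both as the mean of all probe sets and without the 3 arrays highest in smooth muscle markers.

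POR-null and wild-type mice were also compared on the quercetin diet. The median was -0.07 (4.74% lower), with 24 genes below 0, 9 above and Ndufs5 at 0. It was -0.01 over all genes and -0.0067 over the bright genes, of which 50.8% were below 0. With limma 0 of 34 passed (smallest adjusted p = 0.997), against 0% of all probe sets, and at an unadjusted p under 0.05 none was lower, against 2.05%. The pools did not overlap, with POR-null lower, in 7 genes, against 5.41%. The smallest p below 0 went with -0.19 ± 0.09 (SE) for Ndufa13, -0.15 ± 0.08 for Ndufa8 and -0.12 ± 0.07 for Ndufa10. Above 0, the smallest p went with 0.07 ± 0.08 for Ndufa7, 0.06 ± 0.09 for Ndufa12 and 0.07 ± 0.11 for Ndufa6. The last 2 of these genes turned sign when 1 pool was left out.

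**Figure D2:**
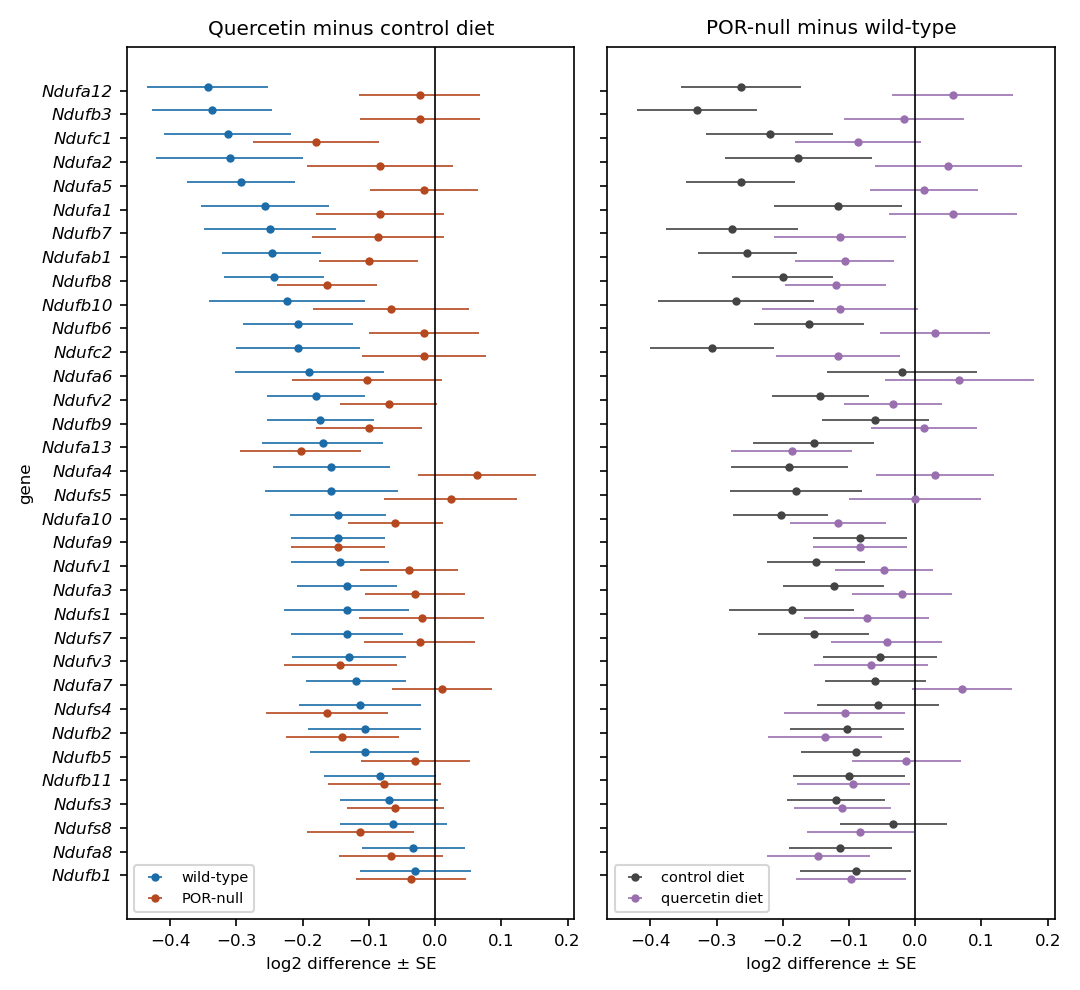
Log2 difference ± SE (limma) of each complex I gene, in order of the quercetin effect in wild-type mice: quercetin minus control diet in wild-type and POR-null mice (left), and POR-null minus wild-type on each diet (right). The wild-type points of the left panel and the control diet points of the right panel all lie below 0, and both rest on the 3 wild-type control pools.

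The test of the difference between the genotypes' quercetin effects, the interaction term, passed for 0 of 34 genes (smallest adjusted p = 0.956), against 0% of all probe sets. It was above 0 in 26 genes, below 0 in 7 and at 0 in Ndufa9. The median was 0.11, against -0.017 over all genes and 0.01 over the bright genes, of which 47.0% were below 0. At an unadjusted p under 0.05, 3 were higher, against 2.15% of all probe sets: Ndufa12 (0.32 ± 0.13), Ndufb3 (0.31 ± 0.13) and Ndufa5 (0.28 ± 0.12). The 95% interval of the Ndufa12 term ran from 0.05 to 0.59. For Ndufs8, Ndufs4 and Ndufa8 the term lay below 0 by at most 0.05 in size, within its SE. A quercetin effect that depends on genotype was therefore not established for any complex I gene.

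Averaged over genotypes, the quercetin difference was below 0 in all 34 genes with a median of -0.12 (8.25% lower). The median was 0.012 over all genes and -0.04 over the bright genes, of which 66.3% were below 0. By limma 0 of 34 passed (smallest adjusted p = 0.547), against 0.00884% of all probe sets, and 14 had an unadjusted p under 0.05, against 3.85% lower of all probe sets. These 14 became 8 without pool 2 of wild-type control or pool 2 of POR-null quercetin, and 9 without pool 3 of wild-type quercetin or under quantile normalization. They became 18 under median centring and 17 as the mean of all probe sets of a gene. Averaged over diets, the genotype difference was below 0 in 32 of 34 genes with a median of -0.10 (6.53% lower). The median was -0.0017 over all genes and -0.01 over the bright genes, of which 53.7% were below 0. None of the 34 passed there either (smallest adjusted p = 0.628 in limma's fit), against 0% of all probe sets, and 12 had an unadjusted p under 0.05, against 2.58%. These 12 became 6 without pool 1 of POR-null control, 7 without pool 2 of wild-type control or pool 1 of wild-type quercetin, and 4 without the 3 arrays rich in smooth muscle markers. They became 14 as the mean of all probe sets of a gene. The 2 exceptions, Ndufa6 at 0.023 and Ndufa7 at 0.005, changed sign when single pools were left out.

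**Figure D3:**
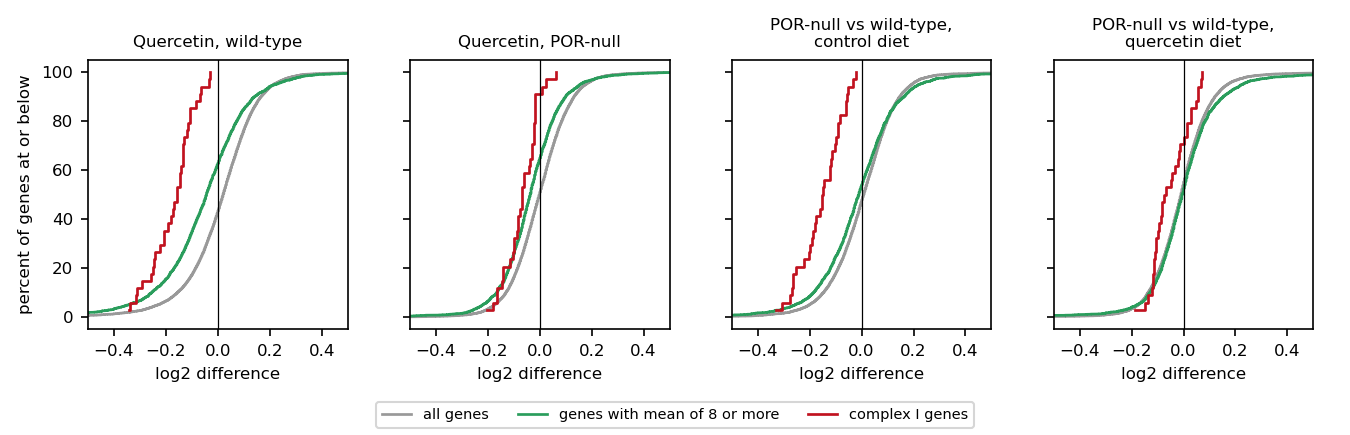
Percent of genes at or below each log2 difference in the 4 pairwise comparisons, for all 12393 genes (grey), the 2250 genes with a mean log2 intensity of 8 or more (green) and the 34 complex I genes (red). The red line is shifted left in the comparisons with the wild-type control group, with medians of -0.16 and -0.15, and lies closer to the others in the remaining pair, with medians of -0.07.

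The core subunits of the redox arm carry the flavin and the iron-sulphur clusters. The 6 described here were all below 0 in each of the 4 pairwise comparisons, with medians of -0.13 for quercetin in wild-type mice, -0.05 for quercetin in POR-null mice, -0.15 for genotype on the control diet and -0.06 for genotype on quercetin. At an unadjusted p under 0.05 this was 1 gene, Ndufv2, in the first comparison and none in the others.

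Ndufv1 binds NADH and the flavin at the tip of the arm. It read 9.49, 9.64 and 9.55 in the wild-type control pools, 9.44, 9.44 and 9.37 in wild-type quercetin, 9.35, 9.48 and 9.40 in POR-null control and 9.34, 9.39 and 9.38 in POR-null quercetin. The lowest wild-type control pool was just above the highest of the rest, by 0.01. Its difference was -0.14 ± 0.07 (limma adjusted p = 0.613) with quercetin in wild-type mice and -0.15 ± 0.07 (adjusted p = 0.824) for genotype on the control diet.

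Ndufv2 holds the cluster beside the flavin site. Its log2 intensities were 10.07, 10.14 and 10.17 in wild-type control, 10.00, 9.86 and 9.98 in wild-type quercetin, 10.01, 10.00 and 9.94 in POR-null control and 9.96, 9.87 and 9.91 in POR-null quercetin. All 3 wild-type control pools were above the other 9. The quercetin difference in wild-type mice was -0.18 ± 0.07 (adjusted p = 0.507).

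Ndufs1, the large subunit with several clusters, was highest in wild-type control pool 1. It read 9.02, 8.91 and 8.83 in that group, 8.92, 8.71 and 8.73 in wild-type quercetin, 8.74, 8.86 and 8.60 in POR-null control and 8.78, 8.59 and 8.77 in POR-null quercetin, so the groups overlapped. Ndufs3, a scaffold of the arm near the quinone site, read 9.64, 9.62 and 9.64 in wild-type control, 9.57, 9.62 and 9.50 in wild-type quercetin, 9.43, 9.57 and 9.54 in POR-null control and 9.49, 9.48 and 9.39 in POR-null quercetin. For Ndufs3 each genotype comparison had no overlap, at -0.12 ± 0.07 on the control diet and -0.11 ± 0.07 on quercetin (adjusted p = 0.854 and 0.997).

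Ndufs7 carries the last cluster of the chain, next to ubiquinone, and Ndufs8 the pair of clusters before it. Ndufs7 read 8.96, 9.12 and 9.12 in wild-type control, 9.01, 8.96 and 8.83 in wild-type quercetin, 8.79, 9.00 and 8.95 in POR-null control and 8.85, 8.92 and 8.90 in POR-null quercetin. Ndufs8 read 9.28, 9.46 and 9.31 in wild-type control, 9.22, 9.26 and 9.38 in wild-type quercetin, 9.37, 9.35 and 9.23 in POR-null control and 9.15, 9.24 and 9.22 in POR-null quercetin. Both overlapped in each pairwise comparison. In those with wild-type control, Ndufs8 differed least among the core subunits. It gave -0.06 ± 0.08 with quercetin in wild-type mice and -0.03 ± 0.08 for genotype on the control diet. Of the 5 Ndufs8 probe sets not used, 3 lay above 0 in the first of these. With quercetin in POR-null mice Ndufs8 differed most among the core subunits, by -0.11.

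The 8 measured accessory subunits of the redox arm cover and brace the core. All 8 were below 0 with quercetin in wild-type mice (median -0.17) and for genotype on the control diet (median -0.07), and 5 of 8 were above 0 for genotype on quercetin (median 0.03).

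Ndufa12 sits on the redox arm where the assembly factor Ndufaf2, its relative, is exchanged for it. It had the smallest p of all 34 with quercetin in wild-type mice. It read 9.68, 9.70 and 9.67 in wild-type control, 9.50, 9.16 and 9.36 in wild-type quercetin, 9.44, 9.35 and 9.47 in POR-null control and 9.47, 9.28 and 9.44 in POR-null quercetin. The wild-type control pools were nearly equal and above all others. The quercetin difference was -0.34 ± 0.09 in wild-type mice, 1.27-fold lower (limma adjusted p = 0.301), and -0.023 ± 0.09 in POR-null mice.

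Ndufa5, which lies beside the quinone-binding part, gave a similar picture at a lower signal. Its pools read 8.21, 8.27 and 8.35 in wild-type control, 7.98, 8.04 and 7.93 in wild-type quercetin, 7.89, 8.07 and 8.08 in POR-null control and 8.06, 7.90 and 8.03 in POR-null quercetin. Quercetin in wild-type mice went with -0.29 ± 0.08 (adjusted p = 0.326) and genotype on the control diet with -0.26 ± 0.08 (adjusted p = 0.628). A further probe set of Ndufa5 gave -0.38 and -0.35.

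Ndufa9, at the junction with the membrane arm, differed by -0.15 ± 0.07 with quercetin in either genotype, and its quercetin pools lay below the control pools both times (adjusted p = 0.590 in wild-type and 0.995 in POR-null mice). Ndufs4, which holds the NADH-binding module in place, was -0.11 ± 0.09 in wild-type mice and -0.16 ± 0.09 in POR-null mice with quercetin, with overlapping pools. Ndufa6 had the widest spread of this set in POR-null control, at 9.96, 10.28 and 10.41.

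Ndufab1 is the mitochondrial acyl carrier protein, which also serves fatty acid synthesis in the organelle and is found in both arms. It read 9.38 in all 3 wild-type control pools. The other pools were lower, at 9.07, 9.14 and 9.19 in wild-type quercetin, 9.07, 9.16 and 9.15 in POR-null control and 9.10, 9.05 and 8.93 in POR-null quercetin. The difference was -0.25 ± 0.07 with quercetin in wild-type mice (adjusted p = 0.374), -0.25 ± 0.07 for genotype on the control diet (adjusted p = 0.595) and -0.11 ± 0.07 for genotype on quercetin (adjusted p = 0.997). Averaged over diets, its genotype difference of -0.18 ± 0.05 had the smallest p of the 34 genes.

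The proximal membrane arm and its face towards the intermembrane space were represented by 8 genes. All 8 were below 0 with quercetin in wild-type mice (median -0.16) and for genotype on the control diet (median -0.17).

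Ndufc2, a small subunit that spans the membrane, had the largest genotype difference on the control diet after that of Ndufb3. It read 9.53, 9.57 and 9.43 in wild-type control and 9.10, 9.30 and 9.21 in POR-null control, which do not overlap, and 9.43, 9.18 and 9.30 in wild-type quercetin and 9.34, 9.12 and 9.10 in POR-null quercetin. On the control diet it was 1.24-fold lower in POR-null mice, at -0.31 ± 0.09 (limma adjusted p = 0.619), and a further probe set gave -0.38. Its partner Ndufc1 read 10.02, 10.27 and 10.06 in wild-type control, 9.88, 9.91 and 9.62 in wild-type quercetin, 9.81, 9.94 and 9.94 in POR-null control and 9.68, 9.79 and 9.68 in POR-null quercetin. For Ndufc1 the quercetin pools lay below the control pools in either genotype, by -0.31 ± 0.10 in wild-type (adjusted p = 0.374) and -0.18 ± 0.10 in POR-null mice (adjusted p = 0.995).

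Ndufa13, which links the arms, was the member with the smallest p in the comparisons that do not use the wild-type control pools. It read 9.82, 10.11 and 9.98 in wild-type control, 9.84, 9.89 and 9.67 in wild-type quercetin, 9.71, 9.85 and 9.89 in POR-null control and 9.65, 9.62 and 9.57 in POR-null quercetin. The POR-null quercetin pools were the lowest of the 12. Quercetin in POR-null mice went with -0.20 ± 0.09 (1.15-fold lower, adjusted p = 0.995).

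Ndufa10, which resembles nucleoside kinases, read 9.54, 9.64 and 9.63 in wild-type control, 9.42, 9.50 and 9.45 in wild-type quercetin, 9.38, 9.35 and 9.47 in POR-null control and 9.31, 9.36 and 9.35 in POR-null quercetin. The POR-null pools were below the wild-type pools on the control diet (-0.20 ± 0.07, adjusted p = 0.702) and on quercetin (-0.12 ± 0.07, adjusted p = 0.997). Ndufa8, with its cysteine pairs in the intermembrane space, gave -0.11 ± 0.08 and -0.15 ± 0.08 in these comparisons, also without overlap.

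The 10 Ndufb subunits measured belong to the distal membrane arm, around the proton pumps. All 10 were below 0 with quercetin in wild-type mice (median -0.19), with quercetin in POR-null mice (median -0.07) and for genotype on the control diet (median -0.13), and 8 were below 0 for genotype on quercetin.

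Ndufb3 was low wherever a pool was not wild-type control. It read 9.13, 9.31 and 9.42 in wild-type control, 8.98, 9.03 and 8.84 in wild-type quercetin, 8.85, 9.03 and 8.99 in POR-null control and 8.92, 8.99 and 8.89 in POR-null quercetin. The difference was -0.34 ± 0.09 with quercetin in wild-type mice (1.26-fold lower, adjusted p = 0.301) and -0.33 ± 0.09 for genotype on the control diet (1.26-fold lower, adjusted p = 0.565). In the comparisons without those pools it was -0.023 ± 0.09 with quercetin in POR-null mice and -0.017 ± 0.09 for genotype on quercetin.

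Ndufb8, whose protein is often used as a marker of assembled complex I, was highest in wild-type control and lowest in POR-null quercetin. It read 10.65, 10.83 and 10.79 in wild-type control, 10.57, 10.55 and 10.42 in wild-type quercetin, 10.55, 10.55 and 10.57 in POR-null control and 10.40, 10.37 and 10.41 in POR-null quercetin. The pools of the groups compared did not overlap in any of the 4 pairwise comparisons. Its average quercetin difference of -0.20 ± 0.05 (1.15-fold lower, adjusted p = 0.547) had the smallest p of the 34 genes.

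Ndufb7, a subunit of the intermembrane face, ranged from 10.57 to 10.96 in wild-type control and from 10.38 to 10.49 in POR-null quercetin. Ndufb10, another one, was widely spread in POR-null quercetin, at 8.69, 8.43 and 8.18. Ndufb1, the dim gene, differed least of the 34 with quercetin in wild-type mice, at -0.03 ± 0.08.

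Ndufa4 carries a complex I name but is counted as a subunit of complex IV. It read 10.43, 10.25 and 10.37 in wild-type control, 10.30, 10.24 and 10.04 in wild-type quercetin, 10.28, 10.13 and 10.07 in POR-null control and 10.24, 10.20 and 10.23 in POR-null quercetin. The groups overlapped, and the differences were -0.16 ± 0.09 with quercetin in wild-type mice and 0.06 ± 0.09 in POR-null mice.

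Other probe sets of the same genes gave a second reading. The 34 genes have 68 single-symbol probe sets, and of the 34 not used, 25 were below 0 with quercetin in wild-type mice (median -0.14) and 24 for genotype on the control diet (median -0.11). Of the 24 with a mean of at least 8, 21 and 19 were below 0. Dim probe sets of Ndufb9 and Ndufs4 lay above 0 in the first comparison, by 0.21 and 0.18, while the bright probe sets of these genes lay below it. Probe sets of 1 gene share their RNA pools and are not replicates.

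Within groups, the members were weakly correlated from pool to pool. After each gene was centred on its group means, the median Pearson correlation over the 561 pairs of members was 0.21, and 69.2% of pairs were above 0. For the 2250 genes with a mean of at least 8 the median was 0.07, for 38 genes of complexes II to V 0.12 and for 18 genes of mitochondrial content 0.13. Ndufa13, Ndufb7 and Ndufb8 were the most like the others (median 0.47, 0.45 and 0.43) and Ndufb2 and Ndufa4 the least (-0.16 and -0.10). All pairs share the same 12 arrays, and no p is attached.

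Start-site sequences were read for what the members share. Windows of 250 bases before to 50 bases after the transcription start (RefSeq, GRCm38.p6) were listed for 31 of the 34, all but Ndufa2, Ndufb9 and Ndufs1. Searched on both strands were GCGCATGC for NRF1, CCGGAAG for GABP, AAGATGGC for YY1 and TCAAGGTCA for ERR, factors known for control of respiratory genes. No match overlapped another in the members' windows. The YY1 letters were in 6 of 31 members (19.4%), against 4.39% of 9882 genes on the array and 3.19% of 27025 genes in the RefSeq table. They are shown because this word, of those searched, was the furthest from its share among all genes, a choice made after the shares were seen. They are written with the matching letters in capitals, 5′ to 3′ on the gene's strand.
Ndufc1 (chr3:51408915-51408944, minus): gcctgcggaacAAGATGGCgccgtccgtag
Ndufa9 (chr6:126849097-126849126, minus): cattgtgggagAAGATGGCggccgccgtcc
Ndufa3 (chr7:3617384-3617413, plus): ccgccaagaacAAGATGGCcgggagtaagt
Ndufs7 (chr10:80249462-80249491, plus): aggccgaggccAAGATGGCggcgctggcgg
Ndufs4 (chr13:114388045-114388070, minus): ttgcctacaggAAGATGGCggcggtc
Ndufb8 (chr19:44555393-44555415, minus): cggagaaggtgAAGATGGCtgcc

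All 6 matches lay on the gene's own strand, in the transcribed bases, starting at base 23 (Ndufc1 and Ndufa3), 25 (Ndufs7), 30 (Ndufa9), 36 (Ndufs4) and 39 (Ndufb8) of the transcript. The word contains ATG, and whether that is the start codon was not tested. These 6 genes differed by between -0.11 and -0.31 with quercetin in wild-type mice, inside the range of the other members.

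The GABP letters were in 4 of 31 members (12.9%), against 16.4% of the array's genes and 9.93% of all, and the NRF1 letters in 2 (6.45%), against 5.01% and 3.05%. The ERR letters were in 0 of 31, against 0.344% and 0.466%. An example of each of the matched words is given, where GCATGCGC is the NRF1 word read on the opposite strand.
Ndufs3 (GABP, chr2:90904731-90904759, minus): cccgcgtccgcCCGGAAGaagagtcactg
Ndufb7 (GABP, chr8:83566727-83566755, plus): gcctagatgacCCGGAAGacactgaaggg
Ndufa8 (NRF1, chr2:36049328-36049357, minus): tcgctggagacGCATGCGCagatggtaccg
Ndufa6 (NRF1, chr15:82354356-82354385, minus): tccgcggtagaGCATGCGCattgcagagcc

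A match is a description of letters and not of a bound site, and the array holds no measure of binding.

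The other respiratory complexes were read beside complex I. Of 38 genes of complexes II to V, 37 were below 0 with quercetin in wild-type mice (median -0.12) and 35 for genotype on the control diet (median -0.08), and 0 passed in either. Sdhd, the membrane anchor of succinate dehydrogenase, gave -0.25 ± 0.10 and -0.31 ± 0.10 (limma adjusted p = 0.476 and 0.622), and Uqcrb, a subunit of complex III, -0.05 ± 0.07 and -0.14 ± 0.07. A difference between complex I and these complexes was not tested.

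Genes that build complex I without being part of it were counted in the same way. Of 14 assembly factors, 8 were below 0 with quercetin in wild-type mice (median -0.05) and 11 for genotype on the control diet (median -0.09). Timmdc1, an assembly factor of the membrane arm, gave 0.06 ± 0.08 and -0.06 ± 0.08, and Tmem186, another, 0.11 ± 0.11 and 0.17 ± 0.11. Of 17 regulators of mitochondrial biogenesis, 5 and 12 were below 0 (medians 0.02 and -0.07). Ppara, the fatty acid receptor, gave -0.02 ± 0.12 and -0.19 ± 0.12, and Tfam, the mitochondrial DNA packaging factor, -0.09 ± 0.18 and -0.23 ± 0.18. Of 18 genes for other parts of the mitochondrion, 10 and 13 were below 0 (medians -0.05 and -0.07), among them Timm23, a protein import channel, at 0.05 ± 0.08 and -0.09 ± 0.08, and the chaperone Hspd1 at -0.06 ± 0.16 and -0.34 ± 0.16. None of these genes passed.

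**Figure D4:**
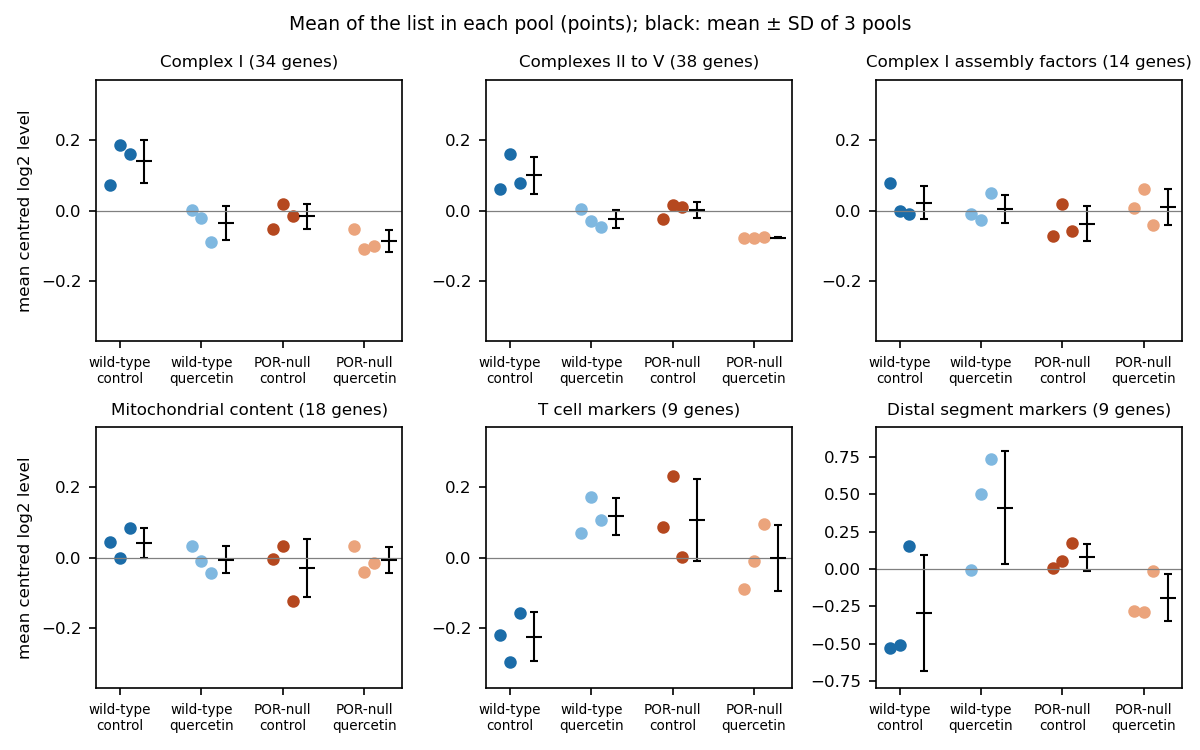
Mean centred log2 level of 6 gene lists in each of the 12 pools (coloured points, 3 per group) with the mean ± SD of the 3 pools (black). Complex I and complexes II to V are highest in wild-type control, T cell markers are lowest there, and the distal segment markers, on a wider axis, are spread widely in the wild-type groups.

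Markers of other cells and of position along the gut were set beside these values. The mean centred level of 9 T cell markers was -0.30 to -0.16 in wild-type control, 0.071 to 0.17 in wild-type quercetin, 0.0023 to 0.23 in POR-null control and -0.09 to 0.097 in POR-null quercetin, and all 9 were above 0 in each comparison with wild-type control. Of 9 markers of the distal small intestine, 8 were above 0 in each of these comparisons. Pool means ran from -0.53 to 0.16 in wild-type control, -0.0077 to 0.74 in wild-type quercetin, 0.0034 to 0.17 in POR-null control and -0.29 to -0.011 in POR-null quercetin. Fabp6, which had the widest range of the 9 (5.83 to 12.18), weighs heavily on these means. The medians over the 9 markers ran from -0.26 to 0.026, 0.11 to 0.44, -0.073 to 0.098 and -0.26 to -0.11 in the pools of these groups. On either reading, the distal values of POR-null quercetin lay within the range of wild-type control. None of the T cell markers passed in either comparison, and of the distal markers 1 passed with quercetin in wild-type mice and 0 for genotype on the control diet. That marker, named after its value was seen, was Osr2, higher by 0.76 ± 0.11 (limma adjusted p = 0.0322). Of 7 markers of the proximal small intestine, 6 were below 0 in each of these comparisons (medians -0.087 and -0.093). Of 8 enterocyte markers, 4 and 5 were below 0 (medians -0.092 and -0.047). Of 6 markers of dividing crypt cells, 1 and 6 were below 0 (medians 0.17 and -0.20), and of 10 smooth muscle markers 9 and 7 (medians -0.105 and -0.037). Goblet cell markers gave 0 and 4 of 6 below 0 (medians 0.095 and -0.015). Paneth cell markers gave 0 and 3 of 3 (0.22 and -0.077). Enteroendocrine markers gave 4 and 5 of 8 (-0.035 and -0.11), and B and plasma cell markers 2 and 1 of 4 (0.017 and 0.19). Pancreatic acinar markers gave 1 and 1 of 6 (0.058 and 0.047). For skeletal muscle these were 1 and 0 of 5 (0.09 and 0.077), and for brown fat 1 and 0 of 3 (0.053 and 0.0033). None of these markers passed. The part of any of these markers in the complex I values was not tested. Without the 3 arrays highest in smooth muscle markers the complex I median was -0.15 for quercetin in wild-type mice (-0.16 with all arrays), -0.11 for quercetin in POR-null mice (-0.067), -0.12 for genotype on the control diet (-0.15) and 0.059 for the interaction (0.11).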

How the data were processed

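Values were the deposited log2 intensities per probe set. MAS5 and RMA are listed in the submitters' processing notes, with no role for either, so the method behind the values the authors deposited is unknown here. Arrays were taken as on 1 scale and not normalised again. After 64 control probe sets were left out, 22626 were fitted with limma 3.58.1 (R 4.3.3), with a mean per group over all 12 arrays and 7 contrasts. Two-sided moderated p-values were adjusted by Benjamini-Hochberg over all probe sets within a contrast and called under 0.05. The fit was tested on simulated data with independent probe sets and planted changes larger than any complex I difference. The recovery of differences as small as those of complex I was therefore not tested. Errors of differences are the SE of the model.

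The members, gene lists and motifs were chosen with earlier results of these data known. Named were, per contrast, called members filled up to 3 in each direction by their p, the core subunits of the redox arm, Ndufa4, and 2 genes of each other list by their p in the average genotype effect. Ndufb1, Ndufb7 and Ndufb10 were added after their values were seen. Replicate numbers did not pair the pools: correlations of deviations from group means ran from -0.14 to 0.18 for equal numbers and from -0.26 to 0.24 for different ones. Plots were made in matplotlib 3.10.9 under Python 3.11.15.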

Additional observations from a re-analysis of the deposited data

How the results depend on the processing

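No complex I gene was called under any alternative: median centring, quantile normalization, leaving out dim probe sets, only the arrays compared, the replicate number as a block, a trend and robust prior, the mean of all probe sets, leaving out each array, or leaving out the 3 arrays with most smooth muscle signal. The median over complex I genes kept its sign in all 7 contrasts. It was -0.081 for the average quercetin effect under quantile normalization, and without the 3 arrays -0.11 for quercetin in POR-null mice and 0.059 for the interaction. With quercetin in wild-type mice it was -0.20 to -0.13 when single arrays were left out. Under quantile normalization 32 of 34 genes were below 0 in that comparison and 23, against 31, with quercetin in POR-null mice.

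Probe sets called over the whole table moved more. For quercetin in wild-type mice 3 became 8 with the replicate block, 15 without the 3 arrays and 0 to 23 without single arrays (23 without wild-type quercetin pool 1, 0 without pool 2 or 3). For the average quercetin effect 2 became 1 under quantile normalization, 4 with the trend and robust prior, 6 without the 3 arrays and 1 to 8 without single arrays. For genotype on quercetin 0 became 24 with only the arrays compared. Without POR-null control pool 3 the 3 genotype counts, 0 with all arrays, were 24 (control diet), 19 (quercetin) and 47 (average); over all single arrays they ranged from 0 to these values. The average genotype count was 4 with the trend and robust prior. The interaction count ranged from 0 to 2. The cause was not tested.

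Signs were followed only for the members named by their p in a contrast, and those that turned were all of small values. Other members also turned, as the counts below 0 show, but are not listed. Ndufa7 with quercetin in POR-null mice was 0.00 under median centring and -0.041 as the mean of all probe sets, which also gave -0.033 for Ndufa12 (genotype on quercetin) and -0.028 for Ndufa7 (average genotype). Without the 3 arrays Ndufs5 was -0.005 (quercetin in POR-null mice), Ndufa6 -0.022 (genotype on quercetin) and Ndufs8 0.023 (interaction). Without single arrays the ranges were -0.033 to 0.14 for Ndufa12 and -0.022 to 0.13 for Ndufa6 (genotype on quercetin), -0.025 to 0.0875 for Ndufa6 and -0.022 to 0.023 for Ndufa7 (average genotype), -0.013 to 0.033 for Ndufa7 and -0.057 to 0.073 for Ndufs5 (quercetin in POR-null mice), and -0.073 to 0.032 for Ndufa8 and -0.145 to 0.03 for Ndufs4 (interaction).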

Other observations

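Several probe sets that complex I genes share with a neighbour, a copy or a pseudogene were not used above. Those of Ndufs6, Ndufa11 and Ndufb4, the members without a probe set of their own, read -0.07, -0.13 and, for the pair of Ndufb4 probe sets, -0.14 and -0.05 with quercetin in wild-type mice. For genotype on the control diet they read -0.11, -0.06, -0.09 and 0.01. No test is given for them, since their reads cannot be divided between Ndufs6 and Ndufs6b, Ndufa11 and Ndufa11b, or Ndufb4 and its copies. Probe sets shared with a neighbour lay above 0. In the same comparisons Ndufa13 with Yjefn3 read 0.14 and 0.20, and Ndufb2 with Adck2 read 0.18 and 0.087. Those shared with a pseudogene lay below 0, at -0.28 and -0.20 for Ndufs5 and -0.093 and -0.13 for Ndufab1.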
